A study of Homo sapiens with 54 samples.

Results

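DKK1, the gene of the secreted Wnt antagonist Dickkopf-1, was followed across HT-29 cells that had received the cytokine tumour necrosis factor (TNF), the mitogen epidermal growth factor (EGF), the hormone insulin or mixtures of these. The platform annotation mapped 1 probe set, 204602_at, to DKK1, so 1 gene was described out of 11963 genes with a probe set of 1 symbol, of which 8105 were over the filter on low signal. The gene was chosen by its measured signals under TNF, EGF and their mixture in these same arrays. Its differences under TNF and EGF are therefore given as a description with no test, and tests were run only for insulin against no insulin and for the course over time.

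HT-29 is a human colon adenocarcinoma line with epithelial morphology. All cells, the untreated ones included, had first been primed for 24 h with interferon-gamma (200 U/ml), so no group shows unprimed cells. The treatments were TNF and EGF at 100 ng/ml each (TNF 100 with EGF 100), TNF at 100 ng/ml and insulin at 500 ng/ml (TNF 100 with insulin 500), TNF at 5 ng/ml and EGF at 1 ng/ml (TNF 5 with EGF 1), TNF and insulin at 5 ng/ml each (TNF 5 with insulin 5), TNF alone at 100 ng/ml (TNF 100) or 5 ng/ml (TNF 5), EGF alone at 100 ng/ml (EGF 100), insulin alone at 500 ng/ml (insulin 500), and none of the 3 factors (untreated). RNA was taken after 4, 8 and 16 h on Affymetrix arrays, with 2 biological replicates in each of 27 groups, which made 54 arrays, and this number of arrays limits the precision.

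Wnt ligands act on a Frizzled receptor and a co-receptor, LRP5 or LRP6, and the signal keeps beta-catenin from being degraded, so that it reaches the nucleus and acts with TCF/LEF factors. Dickkopf-1 binds LRP5 and LRP6 and blocks that step, and the Kremen proteins, which bind it as well, can take the complex off the cell surface. CKAP4 is another described Dickkopf-1 receptor. In the intestinal epithelium Wnt signalling sustains the stem cells at the crypt base, and Dickkopf-1 is known as an antagonist that Wnt signalling itself can induce. EGF acts through its receptor kinase and the ERK cascade, and TNF through NF-kB and stress kinases.

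The stretch before the DKK1 transcription start is shown because TCF/LEF, AP-1, NF-kB and ETS factors lie downstream of the pathways stimulated here. It covers the 250 bases before the start, chr10:52314031-52314280 on the plus strand of GRCh38.p14, from RefSeq, and 62.8% of them are G or C. Capitals mark the matches to the motifs searched.
DKK1: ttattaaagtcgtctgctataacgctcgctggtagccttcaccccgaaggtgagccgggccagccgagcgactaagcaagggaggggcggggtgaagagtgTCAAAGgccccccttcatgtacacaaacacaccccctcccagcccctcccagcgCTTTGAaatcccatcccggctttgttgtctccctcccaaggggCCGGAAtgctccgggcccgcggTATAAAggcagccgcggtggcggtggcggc

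Both strands were searched for 5 motifs. The TCF/LEF core CTTTGA was present at 2 places, 95 to 90 bases before the start on the plus strand and 149 to 144 bases before it on the minus strand, and 11.4% of 27305 promoter windows of this length hold it at least once. The ETS core CCGGAA lay 52 to 47 bases before the start and is present in 14.8% of windows. A TATA box, TATAAA, lay 30 to 25 bases before the start and is present in 11.1%. The letters of the AP-1 motif TGANTCA, present in 6.6% of windows, and of an NF-kB core, GGG and CC set 5 bases apart, present in 53.7%, were not in this window. No matches overlapped, and a match describes letters and not a bound site.

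Array medians lay between 111.3 and 168.0 signal units, and the replicates of a group correlated at 0.945 to 0.977 in log2 signal across probe sets. The log2 ratio of the 3' to the 5' ACTB probe set differed between the replicate numbers at 8 and 16 h. Its median in the 9 replicate 2 arrays was 0.32 at 8 h (0.04 to 1.19) and 0.31 at 16 h (0.02 to 0.43), against -0.22 and 0.05 in the 9 replicate 1 arrays of these times. At 4 h the medians were -0.13 in replicate 1 and -0.03 in replicate 2. The part of this ratio in any result was not tested beyond leaving out the replicate 2 arrays of 8 h or of 16 h. Calls lost without them are given with the gene, for the genes followed in those fits. Of 13 epithelial markers, 10 were over the filter, among them KRT8, KRT18 and EPCAM, whereas the intestinal genes CDX1, CDX2 and CDH17 were below it. The summed epithelial signal was 64929 to 75095 with TNF 100, 69270 to 92640 with EGF 100 and 57763 to 91065 in untreated cells. Over the filter were 4 of 8 fibroblast (COL1A1, DCN, THY1 and COL1A2), 5 of 7 immune and 1 of 5 endothelial markers (PECAM1). Their median signals were 388 for COL1A1, 180 for DCN, 158 for THY1, 86.0 for COL1A2 and 148 for PECAM1. PTPRC, LUM and CDH5 were among those below the filter. The summed fibroblast signal was 765 to 1292 with TNF 100, 741 to 1208 with EGF 100 and 773 to 1186 in untreated cells, the immune one 6224 to 8463, 4852 to 8850 and 5768 to 9453, and the endothelial one 132 to 324, 149 to 341 and 216 to 378 in the same order. The immune sum was mostly LYZ, which had a median signal of 6704. The other immune markers had medians of 21.1 (PTPRC) to 131.7 (CD3E), all under the filter's level of 138.9. A marker was over the filter if the mean of at least 1 group reached that level. The part of the epithelial, fibroblast, immune and endothelial markers in the results was not tested.

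DKK1 signal varied 22.2-fold over the 54 arrays, between 229 and 5078 MAS5 units. At every time it was highest with EGF 100 and lowest with TNF 100. Replicates lay close together: the pooled standard deviation (SD) of log2 signal between replicates was 0.16 for DKK1, against a median of 0.28 over the 13422 probe sets kept. Because each array averages a culture, fewer cells making DKK1 and less DKK1 RNA per cell cannot be told apart.

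**Figure D1:**
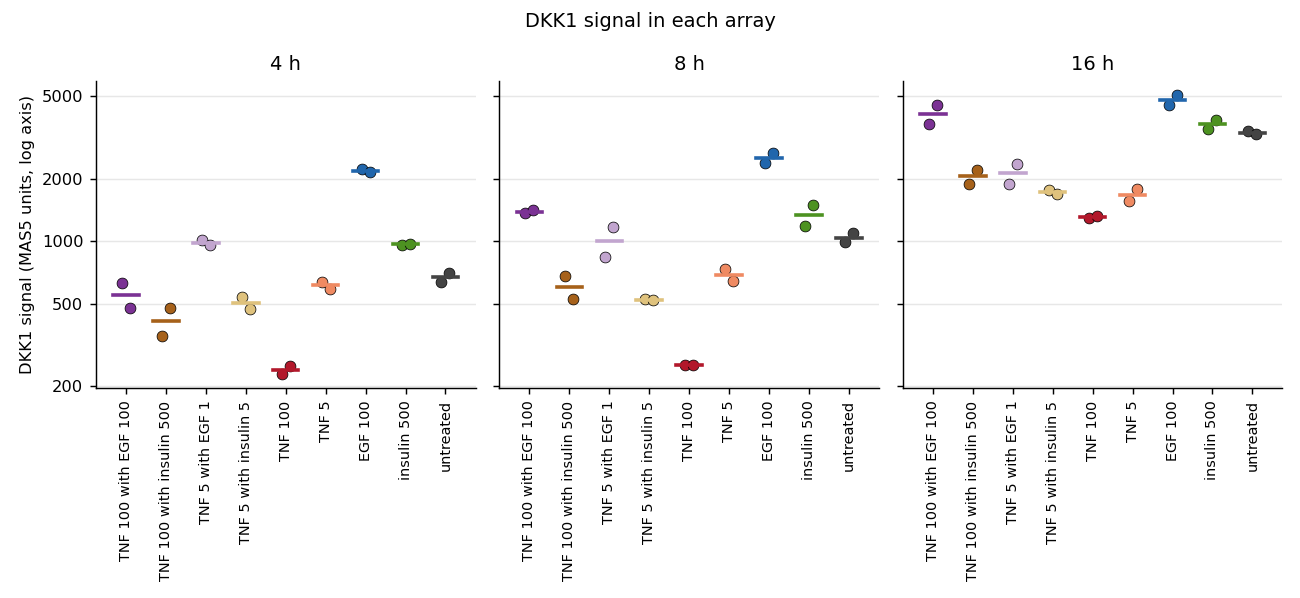
DKK1 signal in MAS5 units (log axis) in each of the 54 arrays, by treatment, with 1 panel for each time; circles are single arrays and bars the mean of the 2 arrays. EGF 100 is highest and TNF 100 lowest in each panel, and all treatments are higher at 16 h than at 4 h.

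At 4 h the order of the mean signals was EGF 100, TNF 5 with EGF 1, insulin 500, untreated, TNF 5, TNF 100 with EGF 100, TNF 5 with insulin 5, TNF 100 with insulin 500 and TNF 100. TNF 5 with EGF 1 and insulin 500 overlapped, as did each neighbouring pair from TNF 5 down to TNF 100 with insulin 500. At 8 h the order was EGF 100, TNF 100 with EGF 100, insulin 500, untreated, TNF 5 with EGF 1, TNF 5, TNF 100 with insulin 500, TNF 5 with insulin 5 and TNF 100. The overlapping neighbours were TNF 100 with EGF 100 and insulin 500, untreated and TNF 5 with EGF 1, and TNF 5 and TNF 100 with insulin 500. At 16 h the order was EGF 100, TNF 100 with EGF 100, insulin 500, untreated, TNF 5 with EGF 1, TNF 100 with insulin 500, TNF 5 with insulin 5, TNF 5 and TNF 100. The overlapping neighbours were TNF 100 with EGF 100 and insulin 500, TNF 5 with EGF 1 and TNF 100 with insulin 500, and TNF 5 with insulin 5 and TNF 5.

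With TNF 100 alone, DKK1 was lower than in untreated cells at all 3 times. Its signals were 229 and 250 with TNF 100 against 636 and 702 in untreated cells at 4 h, 252 and 252 against 988 and 1091 at 8 h, and 1293 and 1319 against 3400 and 3275 at 16 h. The arrays of both treatments did not overlap at any time, and the mean signal with TNF 100 was 35.8%, 24.3% and 39.1% of the untreated one at 4, 8 and 16 h. The mean log2 difference of the 3 times, computed on log2(signal + 12.49) as are all those that follow, was -1.59 ± 0.10 (standard error, SE, n = 6 arrays a treatment), which is 3.01-fold lower. This comparison chose the gene, and its values rank DKK1 10th among the falls of 8105 genes. In it 6.27% of probe sets were lower without overlap at all 3 times and 16.3% passed an adjusted p of 0.05.

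TNF at the lower dose gave a smaller difference that grew with time. DKK1 signals were 635 and 588 with TNF 5 against 636 and 702 in untreated cells at 4 h, 734 and 641 against 988 and 1091 at 8 h, and 1560 and 1781 against 3400 and 3275 at 16 h. The 4 h values lay side by side without overlapping, at a log2 difference of -0.13, while the differences were -0.59 at 8 h and -0.996 at 16 h, and the mean was -0.57 ± 0.10 (SE, n = 6). Lower without overlap at all 3 times were 2.63% of probe sets, and 6.81% passed the test in either direction. Between the doses, DKK1 was lower with TNF 100 than with TNF 5 by log2 differences of -1.31, -1.40 and -0.35 at 4, 8 and 16 h, again without overlap at any time, which held for 1.66% of probe sets (1.27% passed the test). The difference between the doses was thus smallest at 16 h, when the signal under TNF 5 was 50.04% of the untreated one.

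With EGF alone, DKK1 was higher than in untreated cells, most at 4 h. Its signals were 2222 and 2163 with EGF 100 against 636 and 702 in untreated cells at 4 h, 2390 and 2660 against 988 and 1091 at 8 h, and 4567 and 5078 against 3400 and 3275 at 16 h. The arrays did not overlap at any time, as held in the same direction for 1.21% of probe sets, and the mean signal with EGF 100 was 328%, 243% and 144% of the untreated one at 4, 8 and 16 h. The mean log2 difference was 1.16 ± 0.10 (SE, n = 6), or 2.24-fold higher, which ranks 5th among the rises of 8105 genes. Of the probe sets tested, 0.596% passed in this comparison.

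When EGF 100 was given together with TNF 100, DKK1 came back to about the untreated level and, from 8 h, stood above it. Its signals with TNF 100 and EGF 100 were 627 and 479 at 4 h, 1363 and 1416 at 8 h and 3678 and 4548 at 16 h. Against TNF 100 alone, with 229 and 250, 252 and 252, and 1293 and 1319 at these times, the mixture was higher without overlap at every time. The log2 differences were 1.16, 2.405 and 1.64 at 4, 8 and 16 h, with a mean of 1.73 ± 0.10 (SE, n = 6), or 3.32-fold. This was the largest rise among the 8105 genes in this comparison, in which 0.671% of probe sets were higher without overlap at all times and 0.224% passed the test.

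Against EGF 100 alone the mixture was lower, and the gap closed with time. The log2 differences were -1.98, -0.85 and -0.24 at 4, 8 and 16 h, so that the mixture had 25.2%, 55.0% and 85.3% of the mean EGF 100 signal, and its arrays lay below those of EGF 100 at each time. In the same direction 5.85% of probe sets did not overlap at any time, and 14.4% passed the test. Against untreated cells, DKK1 in the mixture was lower at 4 h, where its log2 difference was -0.28, and higher at 8 and 16 h, where the differences were 0.42 and 0.29. The arrays did not overlap in each of these cases, but the directions oppose each other and the mean difference was 0.14 ± 0.10 (SE, n = 6). In the comparison of the mixture with untreated cells 21.3% of probe sets passed.

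The sum of the effects of TNF 100 alone and EGF 100 alone did not give the signal of the mixture. On the log2 scale the sum of both single effects was 0.26, -0.72 and -0.82 at 4, 8 and 16 h. The mixture minus that sum was -0.54, 1.13 and 1.11 at these times. The mean of this interaction was 0.57 ± 0.14 (SE, n = 6 arrays in each of 4 treatments), and without the 8 h arrays it was 0.29. It rests on the same arrays as the comparisons above and was not tested. Over all probe sets 4 passed for this interaction, or 0.0298%.

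**Figure D2:**
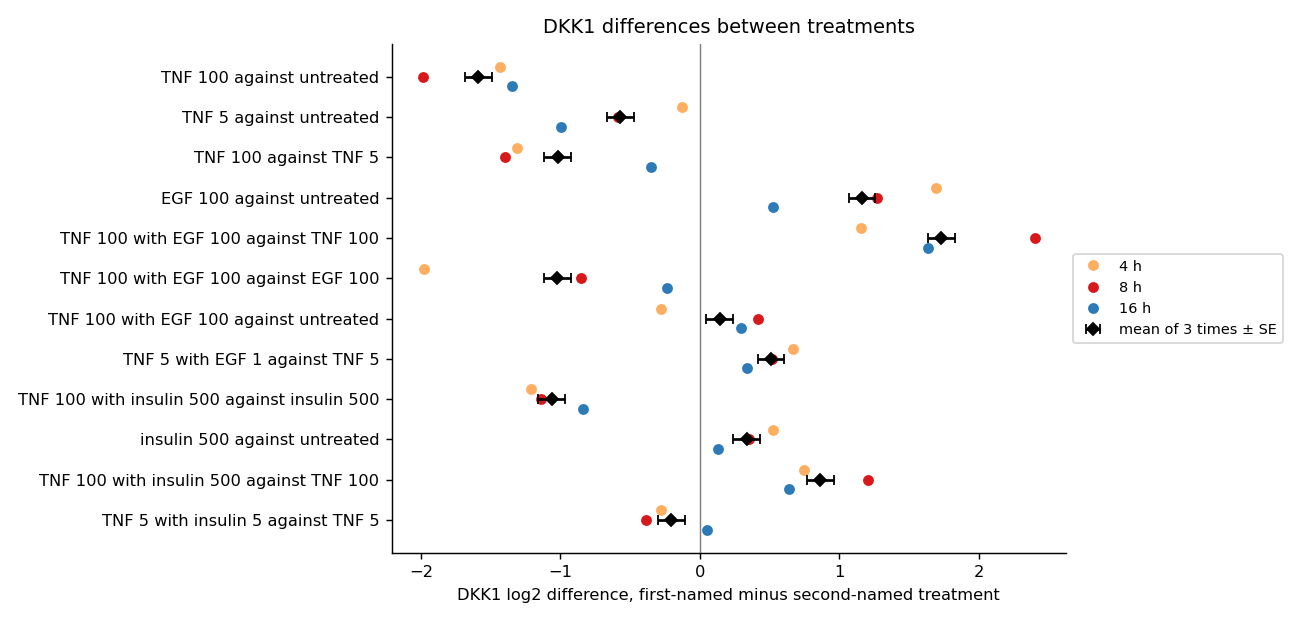
DKK1 log2 difference between treatments (first-named minus second-named, x axis) for 12 comparisons; coloured circles are the differences at 4, 8 and 16 h and black diamonds their mean with its SE. The mixture of TNF 100 with EGF 100 is at 1.73 above TNF 100, at -1.02 below EGF 100 and at 0.14 beside untreated cells.

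At the low doses, EGF 1 with TNF 5 gave a smaller difference from TNF 5 alone. DKK1 signals were 1008 and 955 with TNF 5 and EGF 1 against 635 and 588 with TNF 5 at 4 h, 835 and 1169 against 734 and 641 at 8 h, and 1890 and 2363 against 1560 and 1781 at 16 h. The mixture was higher without overlap at each time, as were 0.536% of probe sets, with log2 differences of 0.67, 0.52 and 0.34 at 4, 8 and 16 h and a mean of 0.51 ± 0.10 (SE, n = 6). Relative to untreated cells the mixture stood at 147% at 4 h, 96.4% at 8 h and 63.7% at 16 h. In this comparison limma's test passed 0 of 13422 probe sets (0%) after adjustment, and 560 had an unadjusted p under 0.05.

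DKK1 did not pass the test under insulin alone, where it was higher at every time. The signals were 961 and 971 with insulin 500 against 636 and 702 in untreated cells at 4 h, 1180 and 1497 against 988 and 1091 at 8 h, and 3482 and 3844 against 3400 and 3275 at 16 h. No arrays overlapped, a state shared by 0.767% of probe sets, but the mean log2 difference was only 0.34 ± 0.10 (SE, n = 6, 95% interval 0.14 to 0.53). The adjusted p was 0.371 by limma's moderated F test over the 3 times, with Benjamini-Hochberg adjustment over 13422 probe sets, and the unadjusted p was 0.00553. In this comparison 0.231% of probe sets passed. P-values here measure the spread between the 2 cultures of each group.

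Added to TNF 100, insulin 500 raised DKK1 at all 3 times. Signals were 350 and 478 with TNF 100 and insulin 500 against 229 and 250 with TNF 100 at 4 h, 676 and 528 against 252 and 252 at 8 h, and 1893 and 2212 against 1293 and 1319 at 16 h. The arrays did not overlap, as for 0.574% of probe sets, and the log2 differences were 0.75, 1.20 and 0.64, with a mean of 0.86 ± 0.10 (SE, n = 6), or 1.82-fold. The limma adjusted p was 1.26e-05, in a comparison that passed 0.499% of probe sets. The call was lost when only these 2 treatments were fitted (adjusted p = 0.122). The comparison uses the TNF 100 arrays whose low signal was part of why the gene was chosen. That choice favours a rise here, so the p is no independent test of it.

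The mixture of TNF 100 with insulin 500 stayed below the untreated level throughout, at 61.9%, 57.9% and 61.5% of it at 4, 8 and 16 h. Against insulin 500 alone its log2 differences were -1.21, -1.14 and -0.83, with a mean of -1.06 ± 0.10 (SE, n = 6) and no overlap at any time, as for 5.9% of probe sets (20.3% passed the test). The interaction of TNF 100 with insulin 500 was 0.53 ± 0.14 (SE) in log2 units. It contains the difference of TNF 100 from untreated cells by which the gene was chosen, so it is given with no test, and 0.00745% of probe sets passed for it. At the low doses, TNF 5 with insulin 5 had 536 and 469 against 635 and 588 with TNF 5 at 4 h, 524 and 520 against 734 and 641 at 8 h, and 1765 and 1698 against 1560 and 1781 at 16 h. The mixture was lower at 4 and 8 h and overlapped TNF 5 at 16 h. The mean log2 difference was -0.20 ± 0.10 (SE, n = 6, 95% interval -0.40 to -0.01) and did not pass (limma adjusted p = 1.0). That comparison passed 0 of 13422 probe sets (0%) with limma after adjustment, and 279 had an unadjusted p under 0.05.

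DKK1 rose over time in all 9 treatments. From 4 to 16 h the log2 difference was 2.87 with TNF 100 and EGF 100, 2.29 with TNF 100 and insulin 500, 1.10 with TNF 5 and EGF 1, 1.76 with TNF 5 and insulin 5, 2.39 with TNF 100, 1.43 with TNF 5, 1.13 with EGF 100, 1.91 with insulin 500 and 2.30 in untreated cells, each ± 0.17 (SE, n = 2 arrays a time). All 9 passed limma's F test over both contrasts against 4 h, with adjusted p between 5.64e-14 and 1.62e-05, and the 16 h arrays lay above the 4 h arrays in each. The share of probe sets that passed and were higher at 16 h was 11%, 12.8%, 9.83%, 9.13%, 11.7%, 7.88%, 6.49%, 5.32% and 5.7% in the same order. In untreated cells the rise was 4.92-fold, which ranks 25th among 8105 genes, and with EGF 100 it was 2.19-fold.

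Most of the rise lay between 8 and 16 h. By 8 h the log2 difference from 4 h was 1.32 with TNF 100 and EGF 100, 0.53 with TNF 100 and insulin 500, 0.46 with insulin 500 and 0.63 in untreated cells. With TNF 100 alone it was 0.07, between arrays with 229 and 250 at 4 h and 252 and 252 at 8 h. It was between 0.01 and 0.20 with TNF 5, TNF 5 with EGF 1, TNF 5 with insulin 5 and EGF 100. Whether these courses differ between treatments was not tested, since that difference is the one for which the gene was chosen.

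Across the 27 group means, the genes most like DKK1 were MAP3K5, a stress-activated kinase kinase kinase (r = 0.86), FHL2, a LIM-domain cofactor (0.86), CCN2, a secreted matricellular protein (0.84), BCAR3, an adaptor of adhesion signalling (0.84), and SGPP1, a sphingosine-1-phosphate phosphatase (0.83). The genes least like it were TBC1D2B, a Rab GTPase-activating protein (r = -0.81), CXCL6, a neutrophil-attracting chemokine (-0.80), SLC11A2, an iron transporter (-0.80), FILIP1L (-0.79) and RALGDS, an exchange factor for Ral GTPases (-0.79). For comparison, the 5th and 95th percentiles of r over 8104 genes were -0.52 and 0.64. These are Pearson correlations of log2 signal over means that share arrays and time points, and they are a description with no p.

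Part of that likeness was the shared course over time. After the mean of each time was taken off, an alternative added after the data were seen, r was 0.75 for MAP3K5, 0.69 for FHL2, 0.67 for CCN2, 0.65 for BCAR3 and 0.64 for SGPP1. For the genes least like DKK1 it was then -0.77 for CXCL6, -0.74 for TBC1D2B, -0.65 for FILIP1L, -0.60 for RALGDS and -0.57 for SLC11A2. Within one time, over 9 means, CCN2 correlated with DKK1 at 0.94, 0.37 and 0.73 at 4, 8 and 16 h, and BCAR3 at 0.71, 0.82 and 0.12. For CXCL6 r was -0.79, -0.73 and -0.86, and for SLC11A2 and FILIP1L it was -0.15 and -0.12 at 16 h. CCN2 and CXCL6 each reached the filter on low signal in 1 of 27 group means, CCN2 in untreated cells at 16 h and CXCL6 with TNF 100 at 8 h, so that they were kept only through a group where they were high and their correlations rest on signals below it. With TNF 100 against untreated cells the log2 differences were 1.40 for CXCL6 and -0.82 for CCN2, and with EGF 100 they were -0.39 and 0.38.

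**Figure D3:**
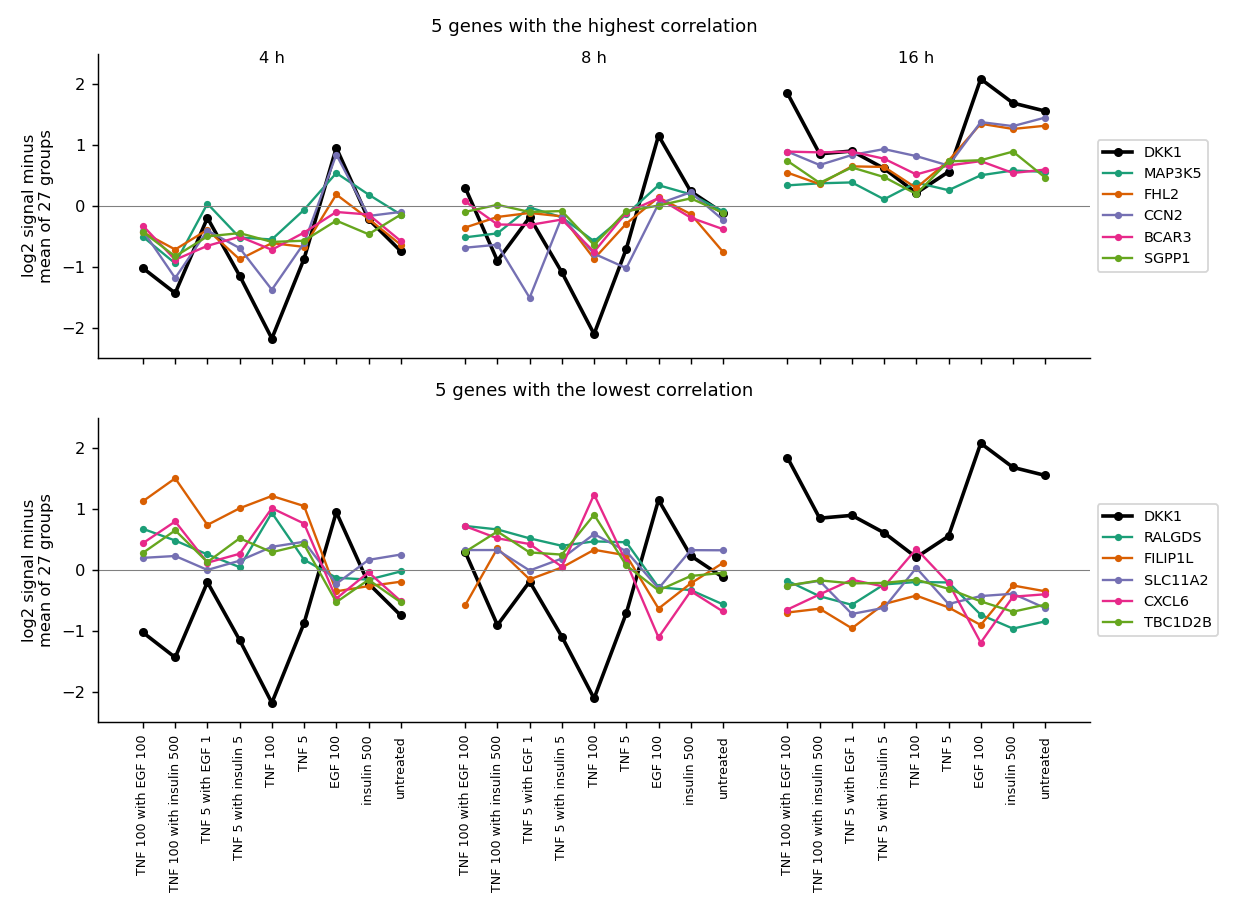
Group means of log2 signal less each gene's mean over the 27 groups (y axis), by time and treatment, for DKK1 (black) with the 5 genes of highest correlation (top) and the 5 of lowest correlation (bottom). The upper genes share the rise of DKK1 at 16 h with smaller amplitude, and CXCL6 is highest with TNF 100 at 8 h, where DKK1 is at its low level.

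The other genes of the Wnt pathway were taken from 7 lists of 108 genes, of which 80 were on the array and 47 were measured over the filter. With TNF 100 against untreated cells 11 of the 47 passed and 36 did not. By the sign of the mean over the 3 times 5 were higher and 6 lower, as were 7.29% and 11.3% of all 8105 genes. The 6 include FZD4, whose direction changed with time, and SOSTDC1, which was kept only through groups where it was high. Without the 16 h replicate 2 arrays 6 passed: GSK3B, MMP7, PTK7, SOSTDC1, TLE4 and WLS. The median log2 difference of the 47 was -0.06, and that of all genes was -0.09. Of all probe sets called in this comparison 40.9% were higher, but 58.6% of 1456 were when each array was centred on its median, and 7 Wnt genes then passed.

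DKK1 receptors and co-receptors were measured by 2 of 5 genes, CKAP4 and LRP5. CKAP4 had 588 and 914 with TNF 100 against 874 and 969 in untreated cells at 4 h, 1277 and 1370 against 743 and 1242 at 8 h, and 2137 and 2434 against 1245 and 1359 at 16 h. The arrays overlapped at 4 h and were higher with TNF 100 at 8 and 16 h. Its mean log2 difference was 0.31 ± 0.14 (SE, n = 6), with a limma adjusted p of 0.0235. The call was lost without any 1 of the 4 arrays of 16 h, with adjusted p of 0.0513 and 0.118 without TNF 100 replicates 1 and 2, and 0.108 and 0.0574 without untreated replicates 1 and 2, and without the 16 h replicate 2 arrays (adjusted p = 0.141). LRP5 had a log2 difference of -0.57 ± 0.22 (limma adjusted p = 0.266). LRP6 and KREMEN2 were below the filter, and KREMEN1 had no probe set of its own symbol.

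Of 15 other secreted Wnt antagonists 4 were measured, and SOSTDC1 was lower with TNF 100. SOSTDC1, which binds BMPs and LRP co-receptors, had 58.2 and 97.6 with TNF 100 against 182 and 289 in untreated cells at 4 h, 13.9 and 19.9 against 178 and 265 at 8 h, and 6.14 and 8.18 against 70.2 and 128 at 16 h. The groups were apart at all times. The signals with TNF 100, and all group means with TNF, were under the filter's level of 138.9, and SOSTDC1 was kept through 7 of 27 group means, all with EGF 100, with insulin 500 or in untreated cells. The log2 difference of -2.297 ± 0.25 (SE, n = 6) is therefore given as a description, on a scale that understates the fold of signals so close to the added 12.49. EGF 100 with TNF 100 gave SOSTDC1 80.3 and 127 at 4 h, 44.1 and 27.8 at 8 h and 7.53 and 14.7 at 16 h, a log2 difference from TNF 100 of 0.44 ± 0.25 between signals that were all under the filter. SFRP1, a soluble Wnt-binding receptor, was at -0.01 ± 0.21 with TNF 100 (limma adjusted p = 0.878), and DKK2, DKK3 and DKK4 were below the filter.

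None of the 3 measured Wnt ligands, WNT6, WNT7B and WNT16, passed with TNF 100. Among 8 measured genes of Wnt secretion and Wnt receptors 3 were called. WLS, which carries Wnts to the cell surface, fell by 0.77 ± 0.13 on the log2 scale (SE, n = 6, limma adjusted p = 0.00012). It had 476 and 703 with TNF 100 against 553 and 973 in untreated cells at 4 h, 387 and 378 against 851 and 787 at 8 h, and 473 and 383 against 824 and 804 at 16 h, with overlap only at 4 h. PTK7, a Wnt co-receptor, fell by 0.58 ± 0.19 (limma adjusted p = 0.0495) and lost the call in 8 of 12 fits that left out 1 array, where adjusted p reached 0.434, and without the 8 h replicate 2 arrays (adjusted p = 0.0813). LGR4, an R-spondin receptor, fell by 0.75 ± 0.19 (limma adjusted p = 0.0351) and also lost the call in 8 of 12 such fits, with adjusted p up to 0.113, and without the replicate 2 arrays of 8 h (adjusted p = 0.0812) or of 16 h (adjusted p = 0.174).

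FZD4, a Frizzled receptor, was called with differences that changed sign over time. It had 235 and 120 with TNF 100 against 278 and 247 in untreated cells at 4 h, 138 and 67.6 against 181 and 200.0 at 8 h, and 383 and 360 against 167 and 134 at 16 h. It was lower without overlap at 4 and 8 h and higher without overlap at 16 h. The log2 differences were -0.60, -0.88 and 1.24, and their mean of -0.08 ± 0.20 (limma adjusted p = 0.00565) carries no direction, since it was 0.32 without the 8 h arrays, 0.09 without the 8 h replicate 2 arrays and 0.07 without replicate 2 of TNF 100 at either 4 or 8 h. The call was lost without the 16 h replicate 2 arrays (adjusted p = 0.12).

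Of 20 measured intracellular transducers 2 rose. GSK3B, the kinase that marks beta-catenin for degradation, had 862 and 752 with TNF 100 against 652 and 761 in untreated cells at 4 h, 724 and 901 against 462 and 476 at 8 h, and 878 and 1008 against 418 and 516 at 16 h. The arrays overlapped at 4 h and were higher with TNF 100 afterwards, and the log2 difference was 0.65 ± 0.12 (SE, n = 6, limma adjusted p = 0.000261). TLE4, a Groucho co-repressor of TCF factors, rose by 0.74 ± 0.16 (limma adjusted p = 0.0057). CTNNB1, which encodes beta-catenin, had a log2 difference of 0.40 ± 0.21 that did not pass (limma adjusted p = 0.422).

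Of 10 measured Wnt target genes 3 were called with TNF 100. MMP7, the secreted protease matrilysin, had 4993 and 4993 with TNF 100 against 2029 and 1304 in untreated cells at 4 h, 5919 and 6145 against 2814 and 3039 at 8 h, and 5753 and 5090 against 2107 and 2181 at 16 h. It was higher without overlap at every time, as were 4.24% of probe sets, by 1.33 ± 0.13 (SE, n = 6, limma adjusted p = 1.39e-08). CD44, a hyaluronan receptor, rose by 0.34 ± 0.11 (limma adjusted p = 0.00981) and lost the call without TNF 100 replicate 2 (adjusted p = 0.111) or untreated replicate 2 (adjusted p = 0.141) of 16 h, and without all 16 h replicate 2 arrays (adjusted p = 0.487). ETS2, an ETS-family factor, fell by 0.44 ± 0.11 (limma adjusted p = 0.0125) and lost it without TNF 100 replicate 1 at 4 h (adjusted p = 0.0543), TNF 100 replicate 2 at 8 h (adjusted p = 0.0501), untreated replicate 2 at 4 h (adjusted p = 0.0555) or the replicate 2 arrays of 8 h (adjusted p = 0.0535) or of 16 h (adjusted p = 0.0516). MYC was at 0.06 ± 0.14 (limma adjusted p = 0.611), LGR5 and ASCL2 were below the filter, and AXIN2 had no probe set of its own symbol.

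At the lower dose of TNF 4 of the 47 Wnt genes passed, 2 with a mean above 0 and 2 below it, against 4.8% and 3.22% of all genes. They were SOSTDC1 at -1.09 ± 0.25 and, with limma adjusted p between 5.91e-07 and 0.0151, TLE4 at 0.70 ± 0.16, MMP7 at 1.09 ± 0.13 and FZD4 at -0.21 ± 0.20. The group means of SOSTDC1 with TNF 5 were under the filter at all times. It was kept only through groups where it was high, so its difference is given as a description. FZD4 again had opposite signs at 4 h (-1.46) and 16 h (1.05). FZD4 lost this call without the 16 h replicate 2 arrays (adjusted p = 0.0888). SOSTDC1 lost it without replicate 2 of 8 h of TNF 5 (adjusted p = 0.0945) or of untreated cells (adjusted p = 0.105) and without all replicate 2 arrays of 8 h (adjusted p = 0.208) or of 16 h (adjusted p = 0.0519), and TLE4 without TNF 5 replicate 2 (adjusted p = 0.0747) or untreated replicate 1 (adjusted p = 0.113) of 4 h. Under EGF none of the Wnt genes passed: limma called 0 of 47 for EGF 100 against untreated cells, where 0.58% of all genes rose and 0.0617% fell, and 6 had an unadjusted p under 0.05. Without 1 array it called 1, MMP7 without untreated replicate 1 of 4 h or AXIN1 without that of 8 h. For TNF 100 with EGF 100 against TNF 100 limma called 0 of 47, with 4 at an unadjusted p under 0.05, and 0.197% of all genes rose and 0.0987% fell. For insulin 500 against untreated cells it called 0 of 47, with 7 at an unadjusted p under 0.05, and 0.111% of all genes rose and 0.16% fell. For the interaction of TNF 100 with EGF 100 it called 0 of 47, with 2 at an unadjusted p under 0.05, and 0.037% of all genes passed. Of 13422 probe sets, 783 had an unadjusted p under 0.05 for EGF 100 and 618 for EGF 100 added to TNF 100. For insulin 500 there were 771 such probe sets, and for the interaction 358. Within 8 h all 36 pairs of groups shared deviations by replicate number (correlation over 0.1). With that number as a block at 8 h, a fit added after the data were seen, 8 Wnt genes passed for TNF 5 and 1, MYC, for EGF 100. In that fit 131 of 13422 probe sets passed for EGF 100, against 80 without the block. The share of all probe sets is not given for TNF 5 in that fit. MYC is also a member of the ERK-responsive list described below.

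**Figure D4:**
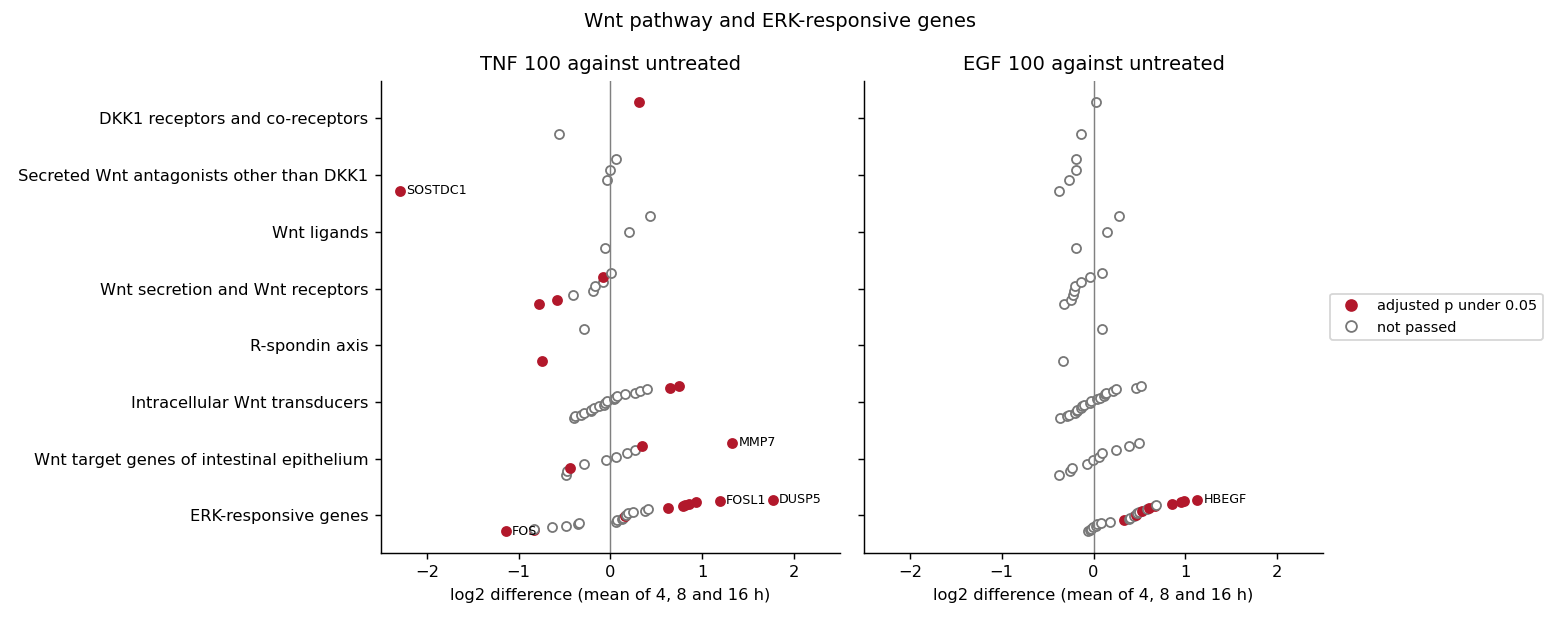
Log2 difference (mean of 4, 8 and 16 h, x axis) of each measured gene of 7 Wnt lists and the ERK-responsive list, for TNF 100 (left) and EGF 100 (right) against untreated cells; filled circles passed an adjusted p of 0.05. SOSTDC1 is at -2.297 and MMP7 at 1.33 with TNF 100, and the filled circles on the right all belong to the ERK-responsive list.

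The ERK-responsive list held genes that ERK signalling is known to induce, and 24 of its 30 members were measured. With EGF 100 against untreated cells 9 of the 24 passed with a mean above 0 and none below it, against 0.58% and 0.0617% of all genes. Of the 9, HBEGF and IER3 had differences of both signs over the times. The median difference of the 24 was 0.45 against -0.04 for all genes. HBEGF, an EGF receptor ligand, had 246 and 441 with EGF 100 against 26.7 and 29.8 in untreated cells at 4 h, 707 and 350.9 against 362 and 337 at 8 h, and 2084 and 1924 against 2452 and 2152 at 16 h. It was higher without overlap at 4 h and lower without overlap at 16 h, and its mean log2 difference was 1.12 ± 0.24 (SE, n = 6, limma adjusted p = 0.000194). FOSL1, an AP-1 subunit, had 1083 and 1175 with EGF 100 against 535 and 538 in untreated cells at 4 h, 1166 and 1167 against 467 and 410 at 8 h, and 1378 and 1694 against 1193 and 965 at 16 h. It was higher without overlap at each time, by 0.98 ± 0.11 (limma adjusted p = 1.42e-06).

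The EGF differences of the list were largest at 4 h for some members. PHLDA1, a pleckstrin-homology-like protein, was at 1.77, 0.83 and 0.26 at 4, 8 and 16 h (mean 0.95 ± 0.13, limma adjusted p = 7e-06), and EGR1, a zinc-finger immediate early factor, at 1.96, 0.02 and 0.03 (mean 0.67 ± 0.17, limma adjusted p = 0.00149). IER3, DUSP5, PHLDA2, IER2 and PLAUR also passed, with means of 0.33 to 0.85, PLAUR close to the threshold (limma adjusted p = 0.0489). IER3 was at 0.84, 0.40 and -0.23 at 4, 8 and 16 h. Its arrays with EGF 100 lay below the untreated ones without overlap at 16 h. DUSP6, an ERK phosphatase, did not pass at 0.40 ± 0.19 (limma adjusted p = 0.771). The DKK1 differences at the same times were 1.70, 1.27 and 0.53, on the same log2 scale.

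Added to TNF 100, EGF 100 raised 1 of the 24 ERK-responsive genes, against 0.197% of all genes. This was PHLDA1, with 911 and 1058 in the mixture against 376 and 457 with TNF 100 at 4 h, 2229 and 1985 against 1029 and 820 at 8 h, and 5078 and 6336 against 3680 and 4191 at 16 h. The groups did not overlap at any time, and the log2 difference was 0.98 ± 0.13 (SE, n = 6, limma adjusted p = 0.000199), where that of DKK1 was 1.73. The list's median in this comparison was 0.18 against -0.02 for all genes. Of the 30 probe sets called 60% were higher, and 78.6% of 14 when arrays were centred on their median. With the replicate block at 8 h, and without the 8 h replicate 2 arrays, FOS passed as well.

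With TNF 100 against untreated cells 10 of the 24 ERK-responsive genes passed, 8 with a mean above 0 and 2 below it, where 7.29% of all genes were higher and 11.3% lower. One of the 8 was HBEGF, at 1.49, 0.07 and -1.07 at 4, 8 and 16 h. With TNF 5 11 were higher and 1 lower by the mean, against 4.8% and 3.22% of all genes, and 6 of these 12 had differences of both signs over the times. The TNF 100 effect itself differed between the times for 5 of 69 Wnt and ERK-responsive genes, against 2.97% of all genes. DUSP5, an ERK phosphatase, was at 1.77 ± 0.14 with TNF 100 and 1.34 ± 0.14 with TNF 5, and FOSL1 at 1.19 ± 0.11 and 0.84 ± 0.11. SPRY2, an inhibitor of receptor kinase signalling, was lower by the mean at -0.84 ± 0.13 and -0.65 ± 0.13, and FOS was lower with TNF 100 at -1.14 ± 0.27. For SPRY2 the TNF 100 effect was higher by 1.42 at 16 h than at 4 h. The limma adjusted p of these 4 genes was between 1.43e-10 and 0.0152. DKK1, at -1.59 with TNF 100 and 1.16 with EGF 100, had opposite signs. FOSL1 and DUSP5 were higher in both, whereas SPRY2 and FOS were lower with TNF 100, as DKK1 was. Whether DKK1 differs from the list in this was not tested.

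Insulin 500 against untreated cells raised 3 of the 24 genes, FOSL1 by 0.82 ± 0.11, PHLDA1 by 0.48 ± 0.13 and IER3 by 0.45 ± 0.08 (limma adjusted p between 0.000449 and 0.0268), against 0.111% of all genes. PHLDA1 lost the call without insulin 500 replicate 1 (adjusted p = 0.383), insulin 500 replicate 2 (adjusted p = 0.108) or untreated replicate 1 of 4 h (adjusted p = 0.377), and IER3 without replicate 2 of insulin 500 (adjusted p = 0.117) or of untreated cells (adjusted p = 0.0632) at 4 h. Without the 16 h replicate 2 arrays both calls were lost (adjusted p = 0.101 for PHLDA1 and 0.0509 for IER3). With the replicate block at 8 h 6 genes passed, where 87 of 13422 probe sets did, against 31 without the block. Of 31 probe sets called here 35.5% were higher, and 14.3% of 7 when arrays were centred on their median. For the interaction of TNF 100 with EGF 100 limma called 0 of 24 ERK-responsive genes, where 0.037% of all genes passed. An unadjusted p under 0.05 was reached by 4 of the 24, and by 358 of 13422 probe sets.

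Outside these lists RGS2 and FGF9, chosen with earlier results of these data known, were followed for comparison. RGS2, a regulator of G-protein signalling, had 1333 and 1448 with TNF 100 and EGF 100 against 1153 and 1023 with TNF 100 at 4 h, 590 and 804 against 401 and 433 at 8 h, and 699 and 555 against 256 and 274 at 16 h. Like DKK1 it was higher in the mixture without overlap at every time, by 0.75 ± 0.10 (SE, n = 6, limma adjusted p = 0.000199). It was also lower with TNF 100 than in untreated cells, by a log2 difference of -2.66 ± 0.10. That difference was known when RGS2 was chosen, so it is given with no test. The comparison with the mixture uses the same TNF 100 arrays, so its p is no independent test. Unlike DKK1, RGS2 with EGF 100 alone was at 0.74, -0.19 and -0.55 against untreated cells at 4, 8 and 16 h. The mixture also stayed below the untreated RGS2 signals, 3684 and 4316 at 8 h and 4844 and 4324 at 16 h. FGF9, a fibroblast growth factor, had 70.5 to 102 with TNF 100, and its log2 difference from untreated cells was -1.83 ± 0.19. These signals, and those of 22.4 to 85.1 with TNF 100 and EGF 100, were under the filter's level of 138.9, which FGF9 passed through 10 of 27 group means, so no test is given.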

How the data were processed

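RNA of 54 HT-29 cultures was hybridised to Affymetrix arrays, 2 biological replicates in each of 27 groups. The deposited values are linear intensity signals made with MAS5, per the submitters' processing notes, and the mean of each array after trimming 2% at each end was 500.2, so no further scaling was applied. The aligner and genome build have no part in these values. Of 22283 probe sets 68 controls were left out. The platform table gave 1 symbol for 19065 of the rest, several for 1043 and none for 2107.

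Signals were analysed as log2(signal + 12.49), the 10th percentile of all signals. A probe set was kept if the mean of at least 1 group reached the median of all log2 values, 7.24, a signal of 138.9. A gene was described by its kept probe set of 1 symbol with the highest mean. All arrays were fitted in limma 3.58.1 (R 4.3.3) with a mean for each group (27 residual degrees of freedom), variances moderated with an intensity trend, and moderated F tests over 4, 8 and 16 h (over 8 and 16 h against 4 h for time). P was adjusted by Benjamini-Hochberg over 13422 probe sets, with a threshold of 0.05, and direction is that of the mean difference. DKK1, the lists, RGS2 and FGF9 were chosen with earlier results of these data known. The genes named are DKK1, the 5 most and 5 least correlated with it, up to 4 called members of each list by adjusted p, and 19 fixed genes. WNT6, WNT7B, WNT16, PHLDA2, IER2, PLAUR, SPRY2 and FOS are named beyond that rule. The statistics were tested on simulated data.

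In 218 of 351 pairs of groups the residuals under a shared replicate number correlated above 0.1, so the numbers were not taken to pair arrays. Alternatives were other pseudocounts, quantile normalization, median centring, no intensity trend, only the treatments compared, other filters on low signal, replicate blocks, leaving out each array, and leaving out the 8 h arrays or the replicate 2 arrays of 8 or 16 h (added after the data were seen).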

Additional observations from a re-analysis of the deposited data

Results flagged for a closer look

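DKK1 in the mixture of TNF 100 with EGF 100, set against untreated cells, moved in opposite directions at different times, with all arrays on 1 side each time. The log2 differences were -0.28, 0.42 and 0.29 at 4, 8 and 16 h, and the difference between the times was not tested for DKK1.

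5 of the 69 measured list genes had a TNF 100 effect that differed between the times, by limma's F test on the change of the effect from 4 h with Benjamini-Hochberg adjustment. For FZD4 the effect was higher by 1.84 at 16 h than at 4 h (log2 scale, adjusted p = 0.013), and the call was lost without TNF 100 replicate 1 (adjusted p = 0.0816), TNF 100 replicate 2 (adjusted p = 0.0566) or untreated replicate 2 (adjusted p = 0.0933) of 16 h, and without the 16 h replicate 2 arrays (adjusted p = 0.346). For HBEGF the effect at 16 h minus that at 4 h was -2.56 (adjusted p = 0.0258), with the call lost in 7 of 12 fits that left out 1 array. For IER3 it was -1.12 (adjusted p = 9.17e-05). For DUSP6 it was -1.84 (adjusted p = 0.0229), with the call lost in 6 of 12 such fits and without the 8 h replicate 2 arrays (adjusted p = 0.071), and for SPRY2 it was 1.42 (adjusted p = 0.0259), with the call lost in 7 of 12. Without the 16 h replicate 2 arrays the adjusted p was 0.325 for HBEGF, 0.0797 for DUSP6 and 0.309 for SPRY2.

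RGS2 passed the test of the interaction of TNF 100 with EGF 100, at 0.75 ± 0.14 on the log2 scale (limma adjusted p = 0.000978). The RGS2 interaction was -0.38, 0.90 and 1.74 at 4, 8 and 16 h. With arrays centred on their median 0 probe sets passed for this interaction. The interaction contains the RGS2 difference of TNF 100 from untreated cells, which was known when the gene was chosen. Its value for RGS2 is therefore given with no test.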

How the results depend on the processing

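DKK1 kept its direction in each of the 10 TNF and EGF comparisons under every alternative, but without the 8 h arrays the log2 difference moved to -1.39 for TNF 100 against untreated cells, -0.83 for TNF 100 against TNF 5, 1.40 for TNF 100 with EGF 100 against TNF 100, 0.0063 for that mixture against untreated cells (0.079 to 0.21 without 1 array, lowest without its replicate 1 of 4 h) and 0.29 for the interaction. The 9 DKK1 tests over time and insulin's 2 that did not pass kept their side of the threshold. TNF 100 with insulin 500 against TNF 100, at 0.86, lost its call when only those treatments were fitted (adjusted p = 0.122, over all alternatives 1.01e-06 to 0.122), a fit with fewer arrays. FZD4 with TNF 100 reversed to 0.32 without the 8 h arrays, and was 0.093 without the 8 h replicate 2 arrays and between -0.23 and 0.07 in fits without 1 array. Calls of single genes were followed for up to 4 called members of each list and for the 5 genes whose TNF 100 effect differed between times. Among these, other calls were lost in 113 fits, and those lost without 1 array are given with the gene. The calls of EGR1, DUSP5, PLAUR, PHLDA2 and IER2 with EGF 100 were not followed gene by gene. Nor were those of FOS, HBEGF and SPRY2 with TNF 100 against untreated cells, of SPRY2 with TNF 5 and of RGS2. The cause was not tested.

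Counts depended more on the setting. With arrays centred on their median, called probe sets were 1456 for TNF 100, 14 for EGF 100 added to TNF 100, 0 for the interaction of TNF 100 with EGF 100 and 7 for insulin 500, with 7 Wnt genes for TNF 100 and 1 ERK-responsive gene for insulin 500. With only the treatments compared they were 1160 for TNF 100, 490 for TNF 5, 13 for EGF 100, 2 for EGF 100 added to TNF 100 and 0 for insulin 500, with 4 (TNF 100) and 2 (TNF 5) Wnt genes, and 3 (EGF 100) and 0 (insulin 500) ERK-responsive genes. With a pseudocount of 50 the interaction had 2 probe sets. Without the 8 h arrays EGF 100 had 52 probe sets and 1 Wnt gene, EGF 100 added to TNF 100 had 11 probe sets and 2 ERK-responsive genes, and insulin 500 had 5 ERK-responsive genes.

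Replicate numbers were not taken to pair arrays (every pair of groups was above 0.1 only within 8 h). With the number as a replicate block, DKK1 kept each call, with adjusted p of 0.21 for insulin 500 and 2.35e-06 for insulin 500 added to TNF 100. Probe sets called were 136 for EGF 100, 7 for the interaction and 74 for insulin 500, Wnt genes 9 for TNF 5, 1 for EGF 100 and 1 for insulin 500, and ERK-responsive genes 9 for insulin 500. With the replicate block within time they were 3347 for TNF 100, 1705 for TNF 5, 207 for EGF 100, 72 for EGF 100 added to TNF 100, 13 for the interaction and 160 for insulin 500, with 11, 1 and 1 Wnt genes for TNF 5, EGF 100 and insulin 500, and 14, 3 and 9 ERK-responsive genes for EGF 100, EGF 100 added to TNF 100 and insulin 500. With a replicate block at 8 h only, added after the data were seen, probe sets were 131 for EGF 100 and 87 for insulin 500, Wnt genes 8 for TNF 5 and 1 for EGF 100, and ERK-responsive genes 2 for EGF 100 added to TNF 100 and 6 for insulin 500.

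Without the 16 h replicate 2 arrays (added after the data were seen) probe sets were 1321 for TNF 100, 578 for TNF 5, 45 for EGF 100, 7 for EGF 100 added to TNF 100, 0 for the interaction and 10 for insulin 500, Wnt genes 6 for TNF 100 and 2 for TNF 5 (MMP7 and TLE4), and ERK-responsive genes 1 for insulin 500 (FOSL1). In fits without 1 array the highest counts were 2247 probe sets and 12 Wnt genes for TNF 100, 940 probe sets for TNF 5 and 78 for EGF 100.

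Without 1 array, or without the 8 h replicate 2 arrays (added after the data were seen), the 30 probe sets of EGF 100 added to TNF 100 became 7 (without TNF 100 replicate 1 of 4 h) to 51 (without the mixture's replicate 1 of 8 h), with 1 to 2 ERK-responsive genes. They were 14, 15 and 47 without TNF 100 replicate 2 of 16 h, replicate 2 of 8 h and replicate 1 of 8 h, and 13, 18 and 19 without the mixture's replicate 1 of 4 h, replicate 2 of 8 h and replicate 1 of 16 h. The 4 of the interaction became 2 to 9 (without TNF 100 replicate 1 of 8 h), and were 2 in 11 such fits. The 31 of insulin 500 became 11 (without its replicate 2 of 4 h) to 54 (without its replicate 1 of 8 h), with 1 to 5 ERK-responsive genes (1 without its replicate 2 of 4 h), and were 14 without its replicate 1 of 4 h and 18 and 19 without untreated replicate 2 of 4 h and of 8 h. Wnt genes were 0 to 1 for EGF 100, the interaction and insulin 500, with the 1 without untreated replicate 1 of 8 h and, for EGF 100, also of 4 h. Signals near the filter, as for SOSTDC1, limit what a fold can show.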
